A study of Mus musculus with 6 samples.

Results

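BLS12 and BLS4 are established stromal lines grown from lymph nodes (LN) of adult BALB/cA mice, and the comparison described here is that of their unstimulated arrays. These are 2 of the 6 single-colour Affymetrix whole-transcript arrays in the study, chosen by their labels. Both lines were cultured in DMEM with fetal calf serum and antibiotics, and neither array of this pair had received antibody. A second pair of arrays came from the same lines after 2 days with 1 µg/ml of an agonistic antibody, a goat polyclonal against the mouse lymphotoxin β receptor (LTβR). That treated pair serves below only to show whether a difference between the lines was present there too. The other arrays, fibroblasts cultured from C57BL/6JJcl embryos of embryonic days 11.5 to 13.5 (MEF) and stroma sorted fresh from adult C57BL/6JJcl LN as CD45-, CD31-, podoplanin+ and VCAM-1+, are quoted for a level only. Every line and condition had 1 array. There is therefore no spread between replicates, no test was possible, and each difference is that between these arrays. Whether a line was cloned, and how each was established, was not given in the sources used here.

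LN stroma of this kind is built of fibroblastic reticular cells, which lay down and ensheathe collagen fibres and secrete chemokines that place lymphocytes in the node. Signalling by lymphotoxin through LTβR and the NF-κB pathway drives their maturation. Stromal cells of different positions in the node, and mesenchymal or mesothelial cells of the tissue around it, are told apart by their transcription factors, matrix and secreted factors.

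The deposited values were linear intensities, compared here as log2 intensity, so a difference of 1 log2 unit is 2-fold and one of 2 is 4-fold. Differences are BLS12 minus BLS4 throughout, so that a negative value is a higher level in BLS4. Of 35557 rows, 21789 (61.3%) belonged to 1 gene, covering 19938 genes, and the brightest row was taken for the 999 genes that had several. A gene was compared where at least 1 of the 2 unstimulated arrays lay at or above its own median, 5.74 in BLS4 and 5.69 in BLS12. This left 12280 genes and set aside 7658. Levels below the median are called near background here, and a fold against such a level is approximate.

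Both lines expressed most markers of fibroblastic stroma, and markers of epithelium were near background. BLS12 was above the median for each of the 6 mesothelial markers fixed for this check, and BLS4 for 4 of them. Of 10 fibroblastic markers 9 lay above the median in each line, and Lum, a keratan sulphate proteoglycan, did not, with 3.79 in BLS4 and 4.32 in BLS12 against 12.01 in the sorted LN stroma. Pdpn, which encodes podoplanin, stood at 11.00 in BLS4 and 11.13 in BLS12, and Pdgfra, a growth factor receptor of mesenchymal cells, at 11.60 and 11.12. Ptprc, the gene of the leukocyte antigen CD45, was at 4.52 and 4.06, and 2 of 7 leukocyte markers in BLS4 and 1 in BLS12 exceeded the median, with Lyz2 highest at 8.54 and 7.82. The leukocyte markers summed to 9.21 in BLS4 and 8.63 in BLS12 on the log2 scale. None of 4 epithelial markers passed the median in either line (summed 7.17 and 7.06), and 2 of 6 endothelial markers did in both (7.86 and 7.97). Of 6 perivascular markers 4 passed in BLS4 and 3 in BLS12, led by Acta2 at 12.14 and 12.13, while Rgs5 (4.37 and 4.32) and Des (5.51 and 5.21) were near background. Of 6 mesothelial markers 4 passed in BLS4 and 6 in BLS12, with sums of 8.63 and 12.29. A level above the median was not particular to BLS12. Krt19 was brighter in MEF (8.72) than in BLS12 (7.45), and Wt1 in the sorted LN stroma (7.04) than in BLS12 (6.76). Msln, Upk3b, Lrrn4 and Bnc1 were brighter in BLS12 than in either. The Y-linked genes Eif2s3y (8.66 and 8.68) and Kdm5d (7.24 and 7.28) were at like levels, and Xist was near background in both (4.23 and 4.19). The structural genes Actb and Col1a1 differed by -0.08 and 0.09 log2 units.

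The lines nevertheless differed widely. Among the 12280 genes 214 (1.74%) were at least 4-fold higher in BLS12 and 177 (1.44%) at least 4-fold higher in BLS4. At least 2-fold differences numbered 878 (7.15%) and 641 (5.22%). The median difference over all genes compared was 0.02, the SD 0.79, and 52.2% of differences were positive. Across all rows Pearson's r between the arrays was 0.968, which is a description over genes and not over replicates. Under other scalings the share of the 4-fold genes that was higher in BLS12 went from 54.7% to 57.6% when each array was centred on its median and to 50.3% after quantile normalization, so neither line can be said to have more such genes.

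**Figure D1:**
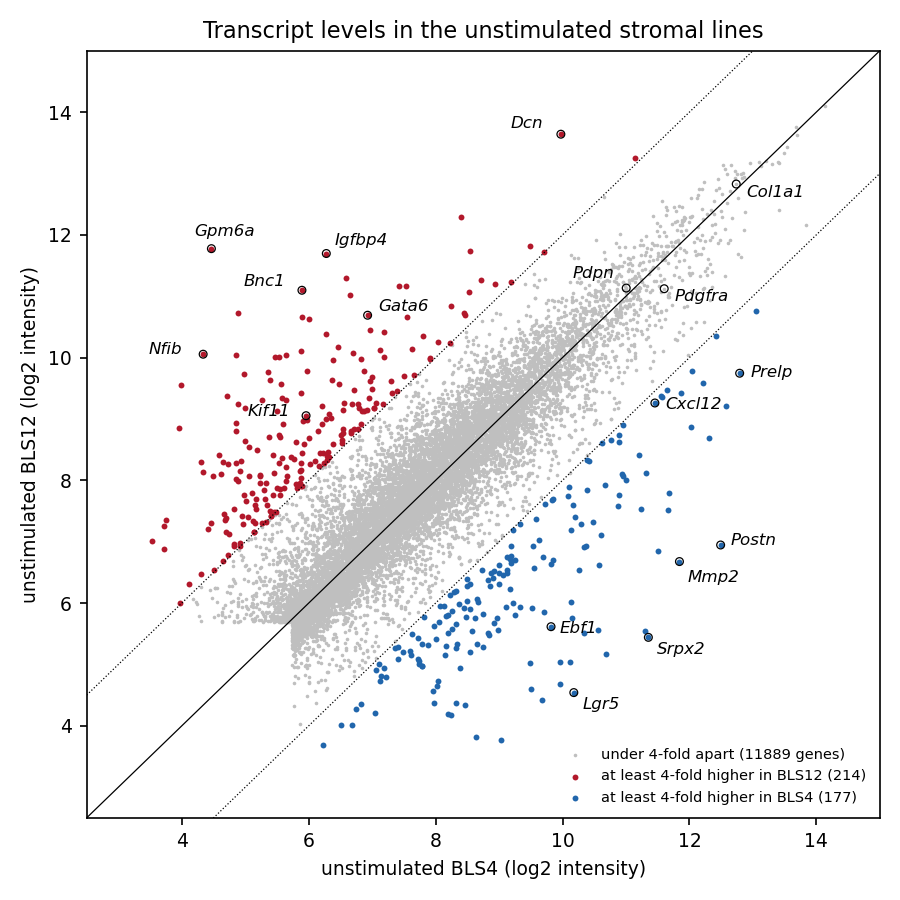
Level of each of the 12280 genes compared in unstimulated BLS4 (x axis) and unstimulated BLS12 (y axis), both as log2 intensity, 1 array a line. The solid line marks equal levels and the dotted lines 4-fold; the 214 red genes lie 4-fold or more above and the 177 blue genes 4-fold or more below, while Pdpn and Col1a1 lie close to the line of equality.

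Of the genes higher in BLS12, Gpm6a, a membrane glycoprotein of neurons and mesothelium, stood farthest from equality. It was at 4.47 in BLS4 and 11.78 in BLS12, a difference of 7.31 that is 159-fold against a level near background. Vat1l (5.84), the transcription factor Nfib (5.72), Pkhd1l1 (5.56), the insulin-like growth factor binding protein Igfbp4 (5.42), the zinc finger protein Bnc1 (5.20) and Plac8 (5.20) followed. The next were the peptidase Naalad2 (4.89), the cAMP phosphodiesterase Pde7b (4.75), the pantetheinase Vnn1 (4.75), the neuropeptide Y receptor Npy1r (4.70), the carboxylesterase Ces2g (4.67), Fmod (4.62), Lrrn4 (4.54) and the receptor phosphatase Ptprq (4.46). Plac8, Ces2g and Naalad2 were bright in the sorted LN stroma too, at 9.84, 9.88 and 10.00, whereas Vat1l and Ptprq were near background there, at 4.99 and 4.71.

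Of the genes higher in BLS4, the secreted protein Srpx2 (-5.91), the extracellular glutathione peroxidase Gpx3 (-5.75) and Lgr5, a receptor for R-spondins (-5.64), had the largest differences. They were followed by the matricellular protein Postn (-5.55), Ms4a4d (-5.52), Mamdc2 (-5.27), the prolactin family member Prl2c5 (-5.26), Egfl6 (-5.25), the gelatinase Mmp2 (-5.17) and Rspo2, an R-spondin (-5.08). Adam23 (-5.00), Dio3, the deiodinase that inactivates thyroid hormone (-4.93), Adamtsl3 (-4.89), the glycosyltransferase Galnt13 (-4.83) and the collagen-binding integrin Itga11 (-4.82) completed the 15 largest. The order rests partly on levels near background in BLS12: with 16 added to each intensity Lgr5 differed by -4.90 and came after Postn, Ms4a4d and Mmp2. Ms4a4d was as bright in the sorted LN stroma (10.74) as in BLS4 (10.69), while Lgr5, Prl2c5 and Egfl6 were near background there (4.27, 3.40 and 4.63).

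Many genes that mark mesothelium, the epithelium-like lining of body cavities and organ surfaces, were higher in BLS12. Of 27 genes on the mesothelial and epithelial list 19 could be compared, and 10 of them (52.6%) were at least 2-fold higher in BLS12 against 7.15% of all genes, with none 2-fold higher in BLS4. The median of these 19 was 1.80. It was 0.28 when the 8 genes near background in both lines were counted too, since a gene near background in BLS4 entered only by being bright in BLS12. Bnc1 went from 5.89 in BLS4 to 11.10 in BLS12, and from 6.19 to 10.20 in the treated pair. Lrrn4, a membrane protein of mesothelial cells, was at 5.47 and 10.02, and at 5.30 and 8.88 with antibody. Pkhd1l1, related to the polycystic kidney disease protein fibrocystin, was at 3.99 and 9.55, and at 4.05 and 8.29 with antibody. In each of these genes both BLS12 arrays lay more than 3 log2 units above both BLS4 arrays.

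The remaining mesothelial genes were named after their values were seen. Upk3b, a uroplakin, stood at 6.47 in BLS4 and 10.17 in BLS12. Msln, which encodes mesothelin, was at 6.17 and 8.44, and the keratin Krt19 at 5.65 and 7.45. Ezr, which links actin to the membrane, differed by 3.75, Nkain4 by 3.24 and Upk1b by 2.73. The list did not move as 1 block: Wt1, a transcription factor of mesothelium, was at 6.33 and 6.76, Krt8 and Krt18 differed by 0.26 and 0.23, and the adipokine Rarres2 by -0.70. Muc16, Epcam, Cdh1, Krt5 and Krt14 were near background in both lines. Of the 10 genes 8 were at least 2-fold higher in BLS12 in the treated pair as well, where the median of the 19 was 0.91. In that pair 1 of the 19 was at least 2-fold higher in BLS4. The 6 mesothelial markers fixed for the cell type check summed to 8.63 in BLS4, 12.29 in BLS12, 10.10 in MEF and 9.61 in the sorted LN stroma on the log2 scale. In RNA from a whole culture, a larger number of cells of one kind and more RNA in each cell cannot be told apart.

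**Figure D2:**
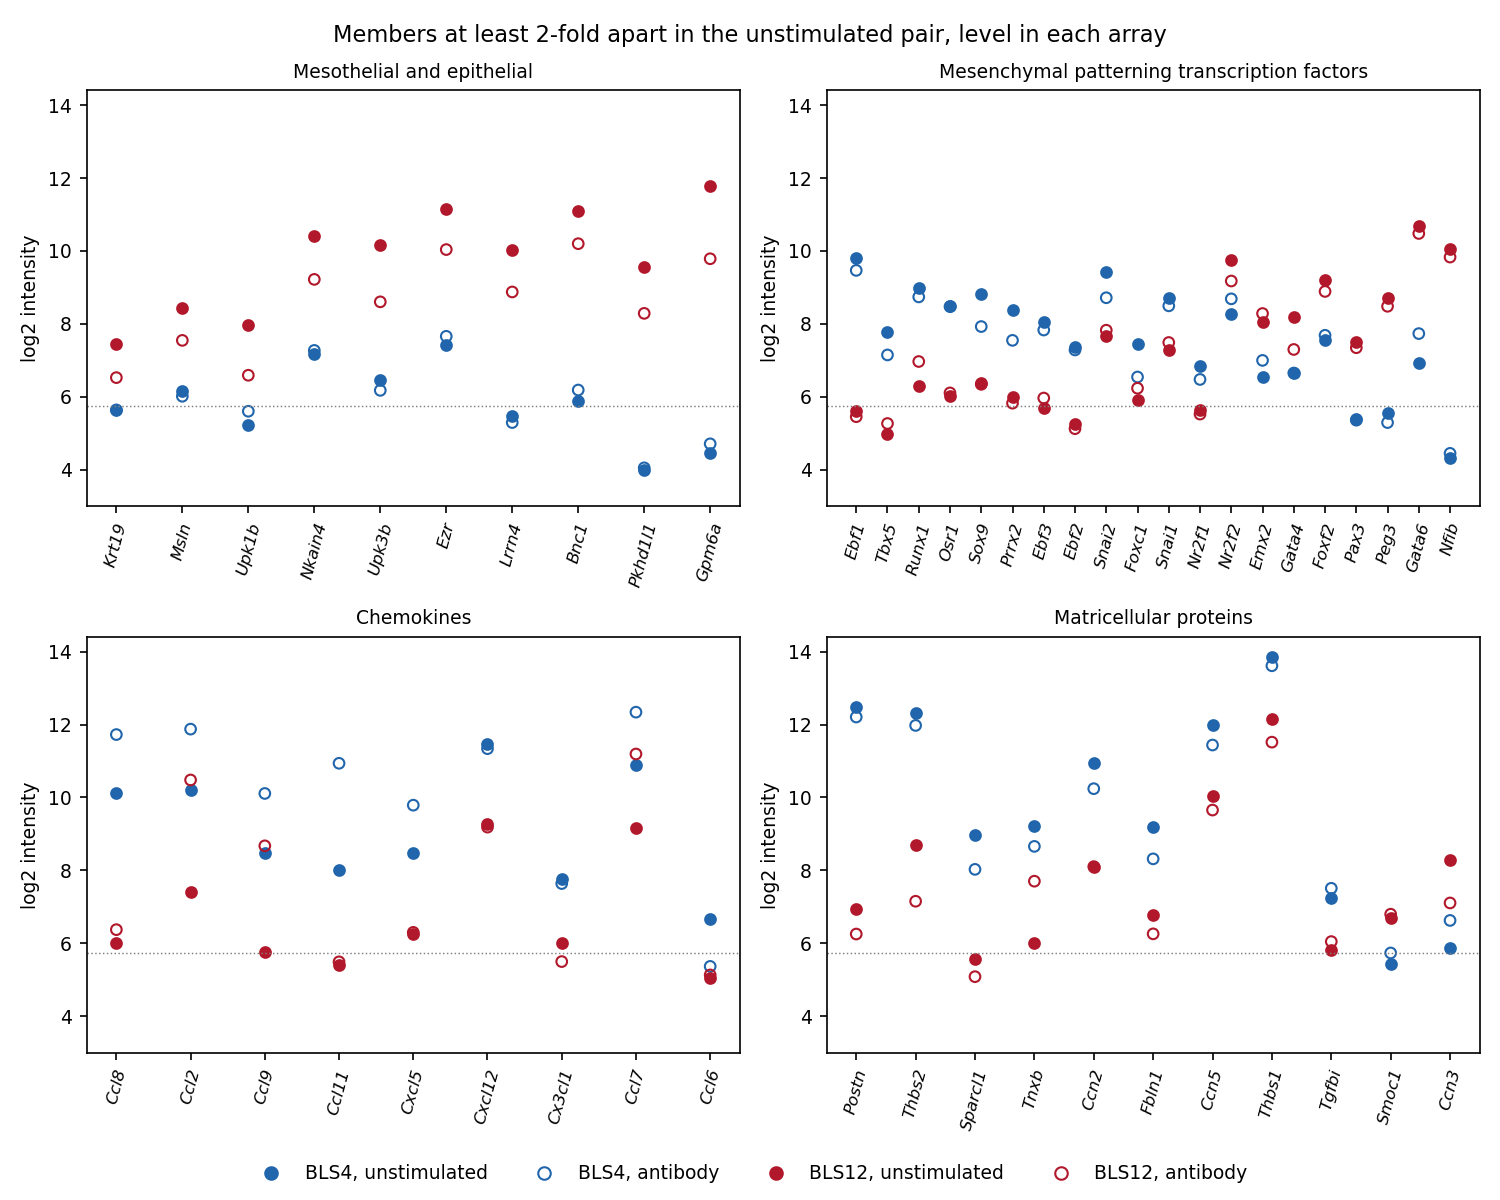
Log2 intensity (y axis) of the members at least 2-fold apart in the unstimulated pair, for 4 gene lists, in each of the 4 arrays of the lines; filled circles are unstimulated, open circles antibody-treated, blue BLS4 and red BLS12, and the dotted line is the median of the unstimulated BLS4 array (5.74). Bnc1 and Gata6 are separated by line in both conditions, whereas the chemokine Ccl2 is brighter in treated BLS12 (10.48) than in unstimulated BLS4 (10.20).

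The transcription factors that pattern mesenchyme divided between the lines, and in this and the later lists the 2-fold counts stand beside 7.15% (BLS12) and 5.22% (BLS4) of all genes. Of 79 listed, 60 could be compared, and 8 (13.3%) were at least 2-fold higher in BLS12 and 12 (20.0%) in BLS4, with a median of -0.22. Nfib, a nuclear factor I protein, was the farthest apart, at 4.34 in BLS4 and 10.06 in BLS12 and at 4.45 and 9.83 with antibody, and its other row differed by 5.49. Gata6, a zinc finger factor of heart, gut and serosal mesenchyme, was at 6.93 and 10.69, and at 7.74 and 10.48 with antibody. Peg3, an imprinted zinc finger gene, was at 5.55 and 8.70, and Pax3, a paired box factor of somite and neural crest, at 5.39 and 7.50. The forkhead factor Foxf2 differed by 1.62, Gata4 by 1.54, the homeobox factor Emx2 by 1.51 and the nuclear receptor Nr2f2 by 1.49.

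In the opposite direction Ebf1, an early B cell factor that also acts in adipocyte and stromal precursors, was at 9.82 in BLS4 and 5.62 in BLS12, and at 9.47 and 5.46 with antibody. Its relatives Ebf3 (8.05 and 5.70) and Ebf2 (7.36 and 5.27), named after their values were seen, were lower in BLS12 as well, so that all 3 were at or near the median of the BLS12 array. The limb and heart factor Tbx5 (7.78 and 4.98), Runx1 (8.99 and 6.31), Osr1 (8.50 and 6.03) and the paired-type homeobox gene Prrx2 (8.37 and 5.99), likewise chosen afterwards, shared that direction. Sox9, a factor of cartilage and other progenitors, was at 8.82 and 6.37. Of the 20 factors at least 2-fold apart, 6 of the 8 and 9 of the 12 were so in the treated pair too.

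Hox genes, which record position along the body axis, gave no such division. Of 26 compared, only Hoxc8 passed 2-fold, with 6.10 in BLS4, 7.52 in BLS12 and a difference of 1.41 (1.03 with antibody). The other 25 ran from -0.75 (Hoxb9) to 0.63 (Hoxc4), and the median was 0.01.

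Small leucine-rich proteoglycans, which bind collagen fibrils and growth factors, had 3 of 9 members at least 2-fold higher in BLS12 and 3 in BLS4. Dcn, decorin, was at 9.97 in BLS4 and 13.64 in BLS12, with 13.81 in the sorted LN stroma. Fmod, fibromodulin, was at 6.01 and 10.63. Prelp, which anchors basement membranes to connective tissue, went the other way with 12.79 and 9.74, as did Aspn (7.13 and 4.73) and, by a smaller margin, Bgn, biglycan (13.42 and 12.40). Dcn, Fmod and Prelp kept differences of 2.88, 3.30 and -2.85 in the treated pair, whereas Aspn was near background in both treated arrays, at 3.78 and 4.07.

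A list of collagens, fibrillar and other, and of their cross-linking enzymes had 7 of 22 members (31.8%) at least 2-fold higher in BLS4. This stands against 5.22% of all genes, and 2 members were higher in BLS12. Col6a3, a chain of collagen VI, was at 11.31 in BLS4 and 8.12 in BLS12, yet Col6a2, another chain of the same collagen, was at 10.91 and 12.01. Loxl1 (10.49 and 7.32) and Loxl4 (7.88 and 6.23), lysyl oxidases that cross-link collagen and elastin, were lower in BLS12, and Plod2, which hydroxylates collagen lysines, was higher (9.64 and 11.27, a difference of 1.63 that was 0.54 with antibody). Both rows of Loxl4 gave that direction, with -2.24 and -1.65. Of the fibrillar collagens, Col1a1 differed by 0.09 and Col3a1, the reticular fibre collagen, by 0.99, so neither was higher in BLS4. Among 21 basement membrane genes the laminin chain Lama2 stood out with 5.39 in BLS4 and 9.63 in BLS12, and Nid2, nidogen, differed by 2.01. Of the 21, 2 were at least 2-fold higher in BLS12 and 3 in BLS4, among them Lama5 (-1.46) and the perlecan gene Hspg2 (-1.24). In the treated pair the 2 higher in BLS12 kept 2-fold, and 0 of the 3 higher in BLS4 did. Lama5 differed there by -0.60 and Hspg2 by -0.92.

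Matricellular proteins, which sit in the matrix and modulate cells without bearing load, were higher in BLS4 in 9 of 20 members (45.0%) and in BLS12 in 2, at 2-fold or more. The median was -0.80, and -0.83 in the treated pair. Postn, periostin, was at 12.49 in BLS4 and 6.95 in BLS12, and at 12.21 and 6.26 with antibody. Thbs2, a thrombospondin, was at 12.30 and 8.69, and at 11.97 and 7.16 with antibody. Sparcl1 was at 8.98 and 5.57. For these genes the BLS4 arrays were high and the BLS12 arrays low in both conditions. Tnxb, a tenascin, differed by -3.22 without antibody and by -0.95 with it. Ccn3 (5.87 and 8.28) and Smoc1 (5.44 and 6.71) were the members higher in BLS12, and in the treated pair they differed by 0.48 and 1.06.

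Of 27 proteases that remodel matrix and their inhibitors, 10 (37.0%) were at least 2-fold higher in BLS4 and 3 (11.1%) in BLS12, with a median of -0.76. Mmp2 stood at 11.84 in BLS4 and 6.68 in BLS12, against 11.77 in the sorted LN stroma and 11.17 in MEF, so the low level was that of BLS12. The serine protease Htra1 (8.62 and 5.75) and the stromelysin Mmp11 (10.68 and 7.92) were also higher in BLS4. Mmp3, another stromelysin, was at 6.82 and 9.98, Timp3, an inhibitor of these enzymes, at 11.15 and 13.25, and the collagenase Mmp13 at 5.14 and 7.15, all higher in BLS12 and by 2.05 or more in the treated pair too.

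Growth factor pathways differed at their ligands, receptors and inhibitors. In the Wnt list 8 of 28 members (28.6%) were at least 2-fold higher in BLS4 and 4 (14.3%) in BLS12, beside 5.22% and 7.15% of all genes, with a median of -0.10. Rspo2, a secreted agonist of Wnt signalling, stood at 10.12 in BLS4 and 5.04 in BLS12, and its receptors Lgr5 and Lgr4 at 10.18 and 4.54 and at 9.0 and 6.48. The ligand and both receptors were thus high in the same line. Sfrp1, a secreted inhibitor that binds Wnt proteins, was bright in both lines but higher in BLS4 (13.04 and 10.75). The Wnt receptor Fzd4 (6.77 and 8.84), the ligand Wnt5a (6.76 and 8.07) and the inhibitors Sfrp4 (4.52 and 6.24) and Frzb (4.88 and 5.95) were higher in BLS12. In the treated pair Fzd4 and Wnt5a differed by 2.04 and 1.56, and Sfrp4 by 0.02.

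For transforming growth factor β (TGF-β) and bone morphogenetic proteins (BMP), 9 of 36 members (25%) were at least 2-fold higher in BLS4 and 4 (11.1%) in BLS12, again beside 5.22% and 7.15%. Eng, endoglin, a co-receptor of this family, was at 5.26 in BLS4 and 9.31 in BLS12, and at 5.21 and 9.42 with antibody. The ligands Bmp4 (6.48 and 9.57) and Tgfb2 (7.06 and 9.26) and the latent binding protein Ltbp1 (7.87 and 9.27) were higher in BLS12. Ltbp2, related to Ltbp1, was the reverse (9.51 and 5.92), as was Inhbb, an activin subunit (9.13 and 6.53). In the treated pair Eng, Bmp4, Tgfb2 and Ltbp2 were again more than 2-fold apart in the same direction, while Inhbb differed by -0.99 and Ltbp1 by 0.84.

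Insulin-like growth factor (IGF) genes had 4 of 18 members (22.2%) higher in BLS12 and 3 (16.7%) in BLS4 at 2-fold, beside 7.15% and 5.22% of all genes. Igfbp4, which binds and restrains IGF, was at 6.28 in BLS4 and 11.70 in BLS12, and at 5.55 and 11.14 with antibody, with 12.17 in the sorted LN stroma. Igfbp7 was the reverse at 12.03 and 8.87. The ligand Igf1 was at 8.48 and 10.34 without antibody and at 7.52 and 7.75 with it, so its difference went from 1.86 to 0.23. Igf2r, which clears IGF2, differed by -1.23, and the protease Pappa by -1.02.

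Among semaphorins, secreted or membrane guidance cues, and their plexin and neuropilin receptors, 7 of 32 genes compared (21.9%) were at least 2-fold higher in BLS12 and 3 (9.38%) in BLS4, beside 7.15% and 5.22% of all genes. Sema3d was at 4.88 in BLS4 and 9.25 in BLS12, Sema3a at 5.98 and 9.78, and Sema3e at 4.85 and 8.03. The receptors Plxna2 (8.37 and 6.73), Plxna1 (10.50 and 8.92) and Nrp1 (9.62 and 8.22) were the 3 higher in BLS4. In the treated pair the 3 ligands named differed by 2.74, 2.63 and 1.89. The receptors Plxna1 and Nrp1 differed there by -1.175 and -1.51, while Plxna2, at -0.69, no longer passed 2-fold.

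Surface and adhesion molecules of stroma went both ways, with 9 of 25 members (36.0%) at least 2-fold higher in BLS12 and 7 (28.0%) in BLS4, beside 7.15% and 5.22% of all genes. Itga11 (10.34 and 5.52), the platelet-derived growth factor receptor Pdgfrb (11.87 and 9.43), the vitronectin-binding integrin chain Itgb5 (11.65 and 9.47) and Cd248, endosialin (10.89 and 8.74), were higher in BLS4. The laminin-binding integrin Itga7 (6.20 and 9.22) and the ectonucleotidase Nt5e (5.64 and 8.21) were higher in BLS12. Vcam1 was at 9.83 and 10.93, Icam1 at 6.66 and 8.38, Thy1 at 6.76 and 8.25, and Cd34 at 9.58 and 10.62. All 4 were therefore higher in BLS12 by 1.04 to 1.73, but Cd34 differed by -0.52 in the treated pair and Vcam1 by 0.69.

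Ltbr, the receptor itself, was at 8.78 in BLS4 and 8.74 in BLS12. In the LTβR and NF-κB list 1 of 22 genes (4.55%) was at least 2-fold higher in each line, a share near the 7.15% (BLS12) and 5.22% (BLS4) of all genes. Nfkb2, whose product is processed in the alternative pathway, was at 8.03 and 9.27, and its partner Relb at 7.43 and 7.60. Ikbkg, the regulatory subunit of the IκB kinase, was at 8.77 and 7.14, and at 8.81 and 6.96 with antibody.

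Chemokines bright in either line were mostly higher in BLS4. Of 31 listed, 15 could be compared, and 9 of them (60.0%) were at least 2-fold higher in BLS4, against 5.22% of all genes, and none in BLS12. The median of the 15 was -1.71, and -0.19 when the 15 chemokines near background in both lines were counted too. Ccl8, a ligand of monocyte receptors, was at 10.13 in BLS4 and 6.02 in BLS12, and at 11.72 and 6.38 with antibody. Ccl2, the main monocyte attractant, was at 10.20 and 7.40, and at 11.87 and 10.48 with antibody. Ccl11, eotaxin, was at 8.01 and 5.41, and at 10.94 and 5.49 with antibody. In Ccl8 and Ccl11 both BLS4 arrays stood above both BLS12 arrays, and in Ccl2 they did not. Ccl9 differed by -2.71 and Cxcl12, which attracts and retains haematopoietic cells, by -2.20 (11.46 and 9.26). The chemokines that mark the T cell and B cell zones were low in both lines: Ccl19 was at 6.04 in each and Cxcl13 at 4.69 and 5.11, against 12.49 and 12.82 in the sorted LN stroma.

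Cytokines and growth factors of lymphoid stroma went both ways, with 6 of 21 (28.6%) at least 2-fold higher in BLS4 and 3 (14.3%) in BLS12, beside 5.22% and 7.15% of all genes. The mitogen Pdgfd was at 8.46 in BLS4 and 4.34 in BLS12, hepatocyte growth factor, Hgf, at 10.89 and 7.76, and Il6 at 7.41 and 5.08. Kitl, stem cell factor, was at 8.53 and 11.07, the alarmin Il33 at 5.16 and 7.61, and Lif at 5.46 and 7.44. Il7, the survival factor of naive T cells, was near background in both (3.89 and 4.10) and at 9.13 in the sorted LN stroma. Of 27 complement genes with a row 15 could be compared, and 12 were near background in both lines. Of the 15, 5 (33.3%) were at least 2-fold higher in BLS12 and 3 (20.0%) in BLS4, beside 7.15% and 5.22% of all genes. The membrane inhibitors Cd55 (5.36 and 9.76) and Cd59a (3.71 and 7.26) and the fluid inhibitor Clu (6.70 and 10.07) were higher in BLS12, as were, named after their values were seen, the inhibitor Serping1 (1.20) and the protease C2 (1.18). The protease Masp1 of the lectin pathway (9.34 and 5.93), the collectin Colec12 (12.23 and 10.58) and C4b (7.78 and 6.30) were higher in BLS4. Cd55 and Cd59a were near background in BLS4 and so entered only by being bright in BLS12, which raises the share counted for BLS12.

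Of 28 interferon-stimulated genes compared, 9 (32.1%) were at least 2-fold higher in BLS4, beside 5.22% of all genes, none in BLS12, and 19 lay within 2-fold. The median was -0.44, and -0.57 in the treated pair. Rtp4 was at 7.96 in BLS4 and 4.56 in BLS12, Ifit3 at 7.40 and 5.29, Ifit1 at 6.85 and 4.95, and Usp18, an inhibitor of interferon signalling, at 6.72 and 4.89. All 4 lay below the median in BLS12. In the treated pair they differed by -3.35, -2.41, -2.34 and -1.22. Of 13 antigen presentation genes only B2m, the light chain of MHC class I, passed 2-fold, at 12.76 and 11.68. The promoters of Ifit1 and Ifit3 are shown as those of a related pair, both on chromosome 19 and both lower in BLS12. The 250 bases before the RefSeq start are given 5′ to 3′, both from the plus strand of GRCm38.p6, Ifit1 from chr19:34640639-34640888 and Ifit3 from chr19:34583279-34583528. Capitals mark the core of the interferon-stimulated response element, searched as GAAA, 2 bases of any kind, GAAA on both strands.
Ifit1: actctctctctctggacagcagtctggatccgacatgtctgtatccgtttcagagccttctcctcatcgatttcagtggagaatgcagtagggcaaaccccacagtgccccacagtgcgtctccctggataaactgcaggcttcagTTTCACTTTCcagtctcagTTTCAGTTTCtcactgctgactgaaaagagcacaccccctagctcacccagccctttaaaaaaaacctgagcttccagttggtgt
Ifit3: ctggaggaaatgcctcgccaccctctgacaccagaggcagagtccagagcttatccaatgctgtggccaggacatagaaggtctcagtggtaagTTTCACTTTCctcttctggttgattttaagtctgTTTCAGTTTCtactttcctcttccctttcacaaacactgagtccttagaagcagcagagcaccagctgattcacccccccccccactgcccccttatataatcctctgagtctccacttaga
Each of these stretches held 2 matches. Promoter windows in the table ran from 250 bases before to 50 after a start, and 14 of the 32 windows of 26 listed genes (43.8%) held the core, against 3.44% of 32851 windows of all genes. Of the listed genes that could be compared, the 9 with a match had a median difference of -0.45 and the 10 without one -0.41. A match is a description of the letters only.

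In glycolysis and the hypoxia response 9 of 37 members (24.3%) were at least 2-fold higher in BLS4, beside 5.22% of all genes, and 2 in BLS12. Of the 37 differences 27 were negative, and the median was -0.48 (-0.57 with antibody). Adm, the vasodilator peptide adrenomedullin, was at 11.24 in BLS4 and 7.53 in BLS12, and the prolyl hydroxylase Egln3 at 7.14 and 4.82. The carbonic anhydrase Car12 (5.0 and 8.63) and Pfkfb3, which sets glycolytic flux (6.29 and 8.0), were higher in BLS12. The hypoxia core ACGTG was in 29 of the 58 promoter windows of the listed genes (50%) and in 19.6% of all windows. Of the listed genes compared, the 23 with a match had a median difference of -0.52 and the 10 without one -0.14. Whether these differ was not tested. Cholesterol and fatty acid genes had 28 of 31 members within 2-fold, and Insig1, a sterol sensor, differed by -1.36.

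Adipogenic and lipid handling genes had 7 of 27 members (25.9%) at least 2-fold higher in BLS4 and 1 (3.70%) in BLS12, beside 5.22% and 7.15% of all genes. Besides Ebf1 the apolipoprotein Apod (8.20 and 5.50) and the lipid droplet protein Plin4 (7.72 and 5.43) were higher in BLS4, and the prostacyclin synthase Ptgis (7.55 and 10.67) was higher in BLS12. In the lysophospholipid and sphingolipid axis 14 of 21 genes lay within 2-fold, 5 (23.8%) were at least 2-fold higher in BLS4 and 2 (9.52%) in BLS12. S1pr3, a sphingosine-1-phosphate receptor, was at 8.96 in BLS4 and 5.76 in BLS12 without antibody. With antibody it was at 10.05 and 9.21, so that the lines differed by -0.85 there. Ugcg, the glucosylceramide synthase, read alike, with -2.54 and -0.87. The sphingomyelinase Smpd3 was higher in BLS12 (6.38 and 9.96), and the lysophosphatidic acid receptor Lpar1 lower (9.47 and 7.61). Among 35 antioxidant genes 3 (8.57%) passed 2-fold in each direction, a share near the 7.15% (BLS12) and 5.22% (BLS4) of all genes. Gpx3 was at 11.30 and 5.55, Gsta4, a glutathione transferase, at 10.95 and 8.90, and Gsta3, its relative, at 6.92 and 9.15. In the treated pair Gsta3 differed by 0.30.

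Genes of cell division were higher in BLS12 when unstimulated. Of 65 mitosis genes compared, 62 (95.4%) were at least 2-fold higher in BLS12, against 7.15% of all genes, 17 were at least 4-fold higher, and all 65 differences were positive, from 0.73 to 3.09, with a median of 1.74. Of 57 genes of DNA replication and nucleotide supply 39 (68.4%) passed 2-fold in BLS12 and none in BLS4, with a median of 1.28. Kif11, the motor that separates spindle poles, was at 5.96 in BLS4 and 9.05 in BLS12. Top2a, the topoisomerase that untangles chromosomes, was at 7.12 and 10.13, although a second, dim row of Top2a differed by -0.16 (3.11 and 2.95). Kif20b, a kinesin of cell division, differed by 2.66 and Ect2, which triggers the cleavage furrow, by 2.61. Mki67, the proliferation antigen, was at 6.54 and 8.77, with 8.49 in MEF and 5.91 in the sorted LN stroma. In replication the primase subunit Prim1 was at 6.27 and 9.0 and the helicase subunit Mcm6 at 6.96 and 9.62, and the ubiquitin ligase adaptor Dtl differed by 2.26.

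This difference was largely one of the unstimulated pair. With antibody the mitosis median was 0.39 and the replication median 0.48, 5 mitosis genes stayed at least 2-fold higher in BLS12, and each of the 65 had a smaller difference than without antibody. For Kif11 the treated arrays read 6.66 in BLS4 and 8.01 in BLS12, for Top2a 7.67 and 8.98, and for Mki67 7.18 and 7.93. In all 3 genes the treated arrays lay between the unstimulated ones, higher than untreated BLS4 and lower than untreated BLS12. The unstimulated BLS12 array was also the one in which the small RNAs described below were low, and the part of this in the list was not tested. In the list of CDK inhibitors and p53 targets, which also holds the kinase Cdk6, 4 of 40 genes (10.0%) were at least 2-fold higher in each line. This stands beside 7.15% (BLS12) and 5.22% (BLS4) of all genes. Cdkn2b, an inhibitor of CDK4 and CDK6, was at 10.09 and 7.74, Cdk6 itself at 6.21 and 8.92, and Cdkn2a at 9.24 and 8.93. Gadd45g (-1.53), Gadd45a (-1.30, and -0.03 with antibody) and Trp53inp1 (-1.26) were higher in BLS4, and Ddit4l (2.15) and Ckap2 (1.62) in BLS12. Myc was at 7.73 and 9.43.

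Promoters of 3 mitosis genes are shown because genes of this list share elements near their starts, Cdk1, the kinase that starts mitosis (8.45 in BLS4 and 10.73 in BLS12), having been added to Kif11 and Top2a after its values were seen. The 250 bases before the RefSeq start are printed 5′ to 3′ on each gene's strand of GRCm38.p6: Kif11 from chr19:37376132-37376381 on the plus strand, Top2a from chr11:99024190-99024439 and Cdk1 from chr10:69352913-69353162 on the minus strand. Capitals mark the cell cycle homology region TTTGAA and the CCAAT box, both searched on both strands.
Kif11: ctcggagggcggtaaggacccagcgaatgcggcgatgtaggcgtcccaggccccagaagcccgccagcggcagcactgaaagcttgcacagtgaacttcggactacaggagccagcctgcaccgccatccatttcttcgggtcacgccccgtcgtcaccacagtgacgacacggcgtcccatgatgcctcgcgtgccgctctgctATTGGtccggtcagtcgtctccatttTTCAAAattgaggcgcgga
Top2a: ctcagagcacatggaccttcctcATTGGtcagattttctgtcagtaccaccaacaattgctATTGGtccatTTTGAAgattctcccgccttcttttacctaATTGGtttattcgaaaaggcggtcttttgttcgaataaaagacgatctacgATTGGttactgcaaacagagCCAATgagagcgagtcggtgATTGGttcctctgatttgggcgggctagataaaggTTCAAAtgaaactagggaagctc
Cdk1: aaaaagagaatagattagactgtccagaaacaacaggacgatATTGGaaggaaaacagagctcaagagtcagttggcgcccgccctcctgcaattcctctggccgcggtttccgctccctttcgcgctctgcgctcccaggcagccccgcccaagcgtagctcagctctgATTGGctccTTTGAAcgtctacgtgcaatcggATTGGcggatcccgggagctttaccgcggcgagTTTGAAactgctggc
Kif11 held 1 match to each element, Top2a 2 and 6, and Cdk1 2 and 3. The homology region was in 41 of 57 windows of 54 listed mitosis genes (71.9%) and in 17.9% of all windows, and the CCAAT box in 73.7% and 37.4%. Of the listed genes compared, the 39 with the homology region had a median difference of 1.75 and the 14 without it 1.5. The 38 with the CCAAT box had 1.74 and the 15 without it 1.57. Whether these differ was not tested.

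**Figure D3:**
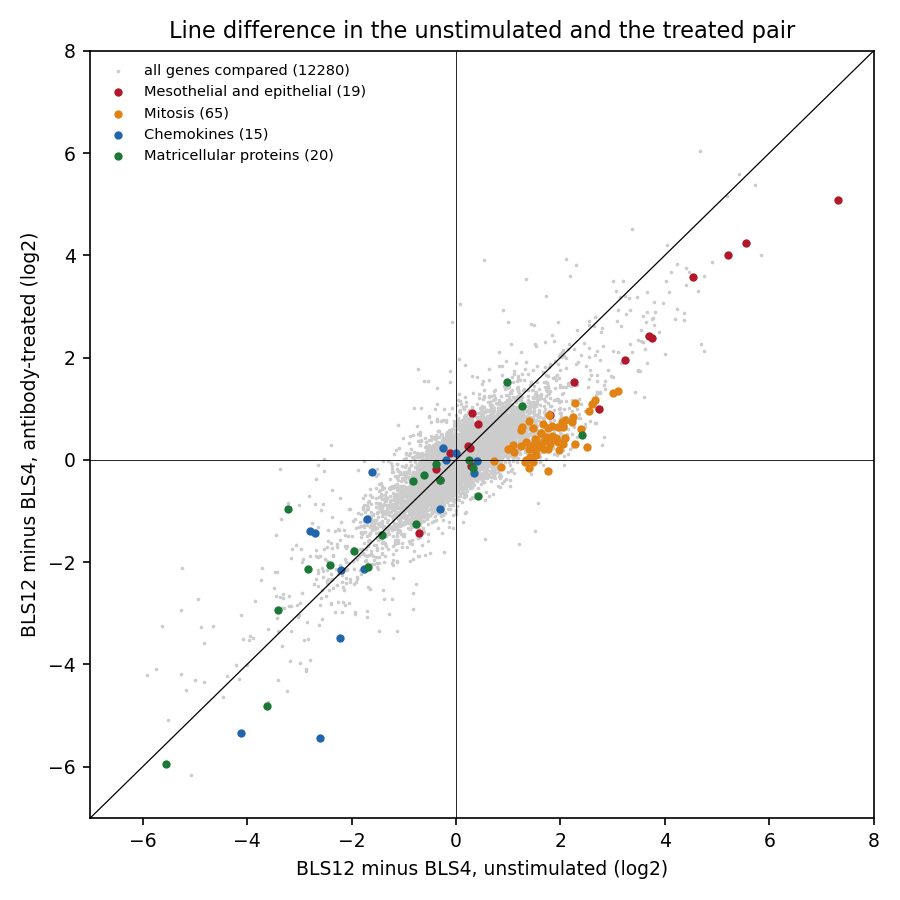
Difference between the lines in the antibody-treated pair (y axis) against that in the unstimulated pair (x axis), in log2 units, for the 12280 genes compared, with 4 gene lists in colour and the line of equality. The 65 mitosis genes lie to the right and below the line (medians 1.74 and 0.39), the mesothelial genes reach farthest to the right and also lie mostly below it (1.80 and 0.91), and most chemokines and matricellular genes lie on the negative side.

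Most of the large differences were present in the treated pair too, which shares no array with the unstimulated one. Of the 391 genes at least 4-fold apart 388 had the same sign there, 309 (79.0%) were at least 2-fold apart and 206 (52.7%) at least 4-fold. Higher in BLS4 were 177 genes, of which 160 kept 2-fold, with a median size of 2.68 and then 2.35. Higher in BLS12 were 214, of which 149 kept it, with 2.64 and then 1.63. In 319 of the 391 the treated difference was the smaller; the genes had been chosen by the unstimulated pair. In 172 (44.0%) the lower level lay below its array's median. Over all 12280 genes the differences of both pairs lay within 1.5-fold of each other in 88.2%.

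The genes that shrank most were of mixed kind. Among those higher in BLS12, Vnn1 was at 4.98 in BLS4 and 9.73 in BLS12 without antibody and at 4.71 and 6.84 with it. Npy1r had differences of 4.70 and then 2.26, and stood at 6.59 in unstimulated and 8.70 in treated BLS4. Gpr165, Calml4 and Ptprz1 had differences of 2.80, 2.84 and 3.61 without antibody and of 0.29, 0.45 and 1.23 with it. Among those higher in BLS4, Egfl6 had -5.25 and then -2.11, while Aspn and the granzyme Gzme had 0.30 and 0.01 in the treated pair.

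Also among these were the Y RNA gene Rny3 and the 5S ribosomal RNA gene n-R5s136, small RNAs made by RNA polymerase III. Rny3 was at 12.58 in BLS4 and 9.21 in BLS12 without antibody, and at 12.45 and 12.27 with it. The 5S gene was at 12.22 and 9.58, and then at 11.97 and 11.87. In both, the unstimulated BLS12 array was low and the other 3 arrays of the lines were alike. Others of the same class, picked after this was seen, read the same way: Rny1 differed by -2.68 and -0.37, and the RNase P genes Rpph1, Rprl1 and Rprl2 by -1.09, -1.15 and -1.18 against 0.23, 0.19 and 0.11. Rmrp differed by -0.69 and then 0.54. Without the small RNA genes, an alternative added after seeing the data, 214 genes were 4-fold higher in BLS12 and 174 in BLS4. A shift in this direction was not confined to these genes. From the unstimulated to the treated pair the median difference of 30 small nucleolar RNA genes went from 0.07 to 0.72. That of 74 microRNA genes went from -0.19 to 0.07, and that of 230 long non-coding RNA genes from -0.11 to 0.04. For 11847 protein-coding genes it went from 0.03 to -0.01.

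**Figure D4:**
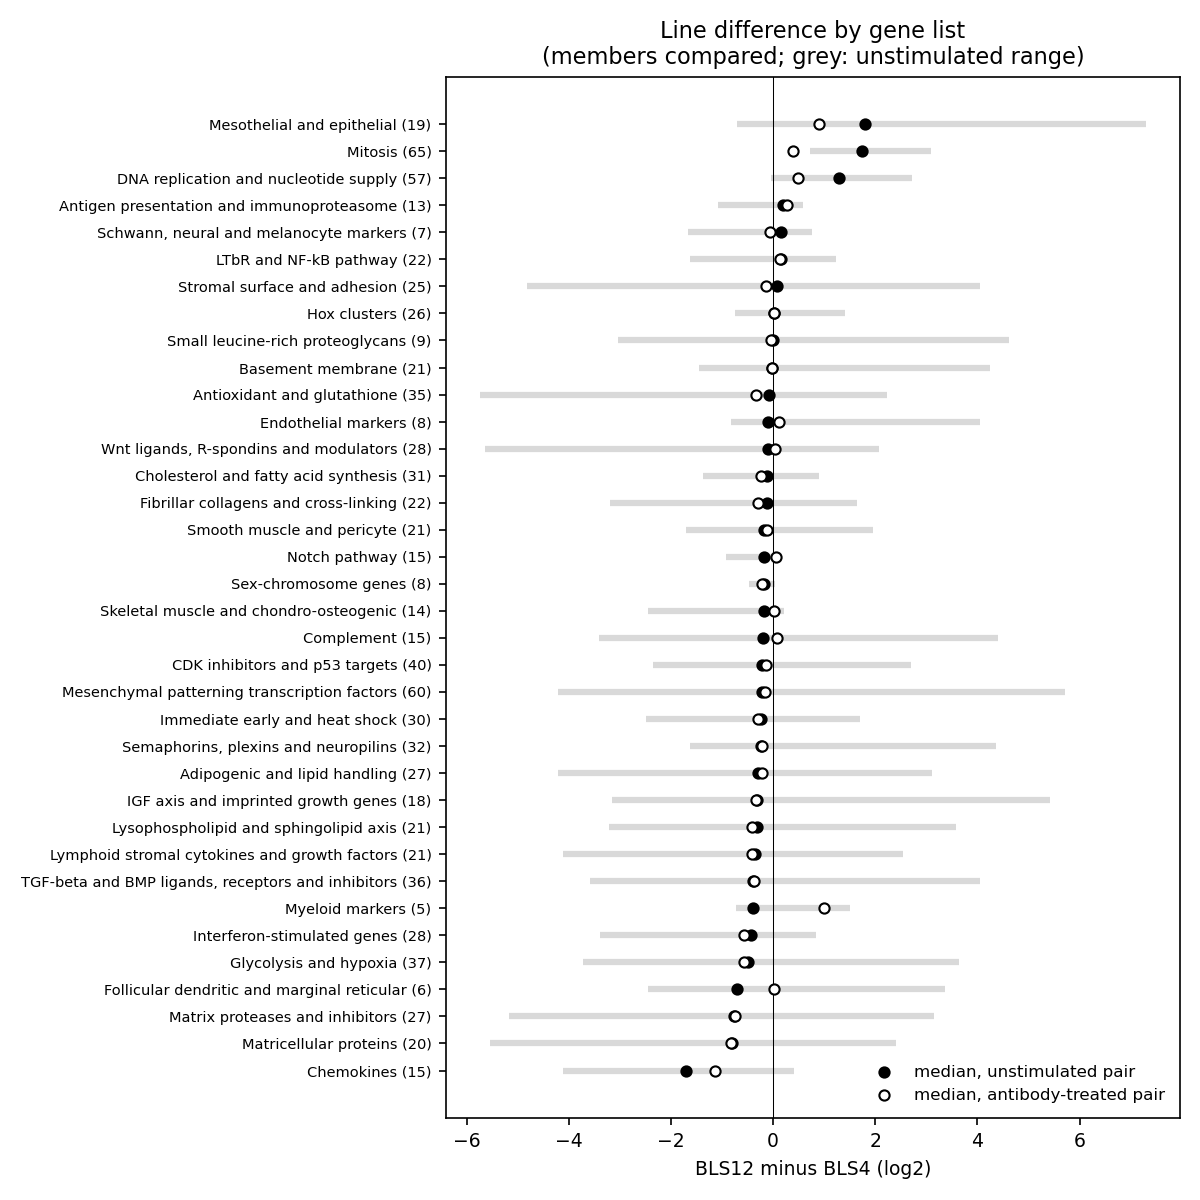
Median difference between the lines (x axis, log2 units) of each gene list with at least 5 members compared, whose number is in brackets; filled circles are the unstimulated pair, open circles the treated pair, and grey bars run from the lowest to the highest member in the unstimulated pair. Mesothelial genes (1.80), mitosis (1.74) and replication (1.28) stand highest and chemokines (-1.71) lowest, while most other medians are near 0 with members on both sides.

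By position in the genome, genes of chromosome X stood lower in BLS12. Of 354 X-linked genes compared, 267 had a negative difference, the median was -0.39, and 60 (16.9%) were at least 2-fold higher in BLS4 against 22 (6.21%) in BLS12. The medians of the 19 autosomes ran from -0.18 to 0.35, and 2.84% to 6.75% of their genes were at least 2-fold higher in BLS4. In the treated pair the X median was -0.51, and those of the autosomes ran from -0.22 to 0.25. The X median was -0.40 in the 301 genes bright in both lines. It was -0.40 also without the cell cycle and sex-chromosome lists, -0.34 with centred arrays and -0.46 after quantile normalization. Srpx2 and Egfl6 are X-linked and were among the 15 largest differences. Chosen after their values were seen, Tmem47 (7.98 in BLS4 and 4.38 in BLS12), Tspan6 (10.60 and 7.12) and Mid2 (8.54 and 5.21) shared that direction. Heph, a copper-dependent ferroxidase (4.99 and 9.17), and Gabra3, a GABA receptor subunit (4.61 and 8.10), were X-linked and opposed it. Among the autosomes, chromosomes 10 (14.1%), 19 (13.3%) and 11 (10.1%) had the largest shares at least 2-fold higher in BLS12, with medians of 0.35, 0.28 and 0.26. Chromosome names are those of GRCm38.p6.

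**Figure D5:**
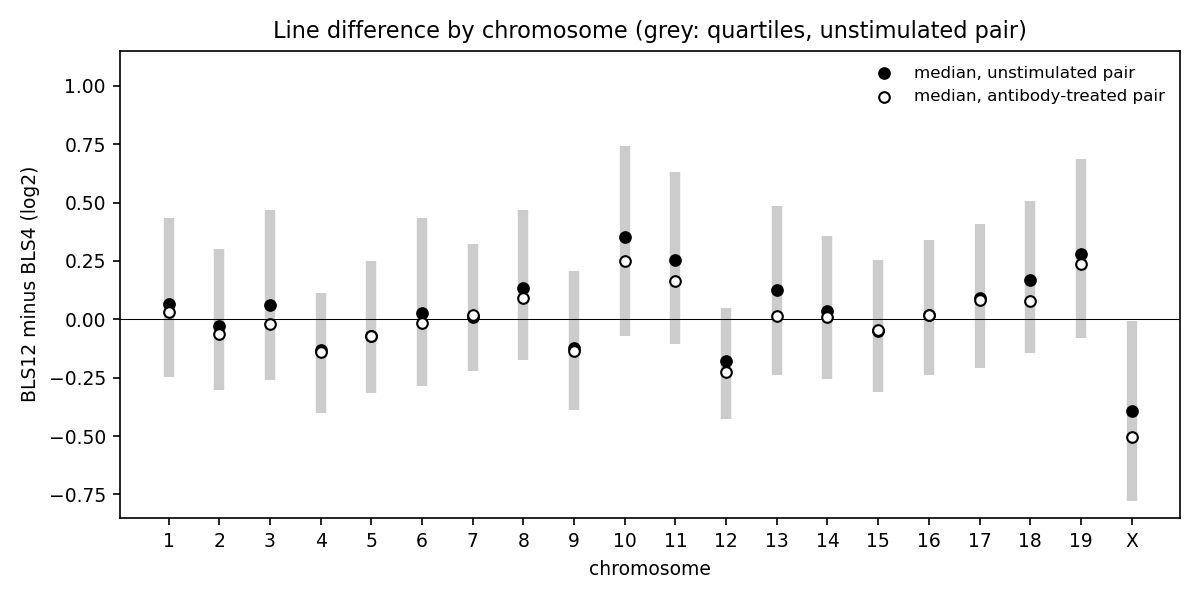
Median difference between the lines (y axis, log2 units) of the genes compared on each chromosome (x axis); filled circles are the unstimulated pair, open circles the treated pair, and grey bars span the quartiles of the unstimulated pair. Chromosome X is lowest in both pairs (-0.39 and -0.51) and chromosome 10 highest (0.35 and 0.25).

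Of the remaining lists, all 15 Notch pathway genes and the 8 sex-chromosome genes compared lay within 2-fold. Smooth muscle and pericyte genes had 17 of 21 within 2-fold, with the light chain Myl9 (9.41 and 11.20) and its kinase Mylk (6.73 and 8.68) higher in BLS12 and Anpep (-1.71) and Lmod1 (-1.41) in BLS4. In the immediate early and heat shock list 24 of 30 were within 2-fold, and the small heat shock protein Hspb1 was at 8.91 and 6.41, with its other row giving -2.61. Of 6 follicular dendritic and marginal reticular genes compared, 3 lay within 2-fold, Clu was higher in BLS12, and Sox9 and Mfge8, which bridges dying cells to phagocytes, were higher in BLS4, with a median of -0.70 (0.03 with antibody). Mfge8 differed by -1.13, and by -0.08 with antibody. Tnmd, a tendon protein, differed by -2.37 and Mitf, the melanocyte factor, by -1.67. Of the leukocyte lists 2 of 16 lymphocyte and 5 of 20 myeloid genes could be compared, and only Cd14, the lipopolysaccharide co-receptor, passed 2-fold (6.50 and 8.0). Among 8 endothelial genes only Eng did, beside Pecam1 and Cdh5 near background in both lines.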

How the data were processed

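The deposited table held 1 linear intensity per transcript cluster and array, which the authors made with Affymetrix Expression Console 1.1 per the submitters' processing notes. How probes were summarised and scaled, and on which build, is not given in the sources used here. Log2 was taken with no floor or offset, since the lowest intensity was 3.55. Rows of 1 gene were named from the platform annotation, and 21698 of 21789 matched RefSeq by gene identifier. Rows of several genes (1621) or none (12147) were not used here. Genes were counted by size at 4-fold and 2-fold, with 1 array a group. The counting was tested on simulated data and run in python 3.11.15 with pandas 2.3.3 and numpy 2.4.6. The comparison, the 37 gene lists and the naming rule were chosen with earlier results of these data known. Named were the 15 largest differences in each direction, fixed anchor genes, up to 4 members of each list at 2-fold or more and any opposing ones, the 5 in each direction that shrank most with antibody, and genes opposed in both pairs. Genes named outside this rule were chosen after their values were seen, which also holds for the cell type markers not on a list and the genes named as near background. Arrays carry no counts, and their number limits the precision. Alternatives were centring, quantile normalization, filters, an offset of 16, the mean of a gene's rows and the 2-fold size.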

Additional observations from a re-analysis of the deposited data

Results flagged for a closer look

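Among the 12280 genes compared, 2 were at least 2-fold apart in opposite directions in the unstimulated and the antibody-treated pair, and whether the pairs differed was not tested, as each array stands alone. Igfbp3, which carries insulin-like growth factors, was at 7.55 in BLS4 and 9.07 in BLS12 without antibody, a difference of 1.52. With antibody it was at 8.40 and 7.01, a difference of -1.38, so that BLS4 was the higher line. Saa3, an acute phase protein, was at 4.64 and 5.85 without antibody, a difference of 1.21 with BLS4 near background. With antibody it was at 8.51 and 6.86, a difference of -1.65, and both treated arrays lay above both untreated ones.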

How the results depend on the processing

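No paired analysis was possible because the labels carry no replicate numbers and each line and condition had 1 array, and for the same reason no replicate could be left out. Requiring both unstimulated arrays to lie at or above their median left 110 genes at least 4-fold higher in BLS12 and 109 in BLS4, and 173 that kept 2-fold in the treated pair, as genes near background in 1 line then dropped out. At 2-fold the counts were 878 and 641. The 4-fold counts were 235 and 173 with centred arrays, 189 and 187 after quantile normalization and 156 and 149 with an offset of 16. Added after seeing the data, they were 189 and 177 without the mitosis and replication lists and 207 and 163 without chromosome X. With no filter on dim genes the mesothelial and epithelial median was 0.28 and the chemokine median -0.19. Of 37 list medians 5 changed sign under some setting, each at most 0.16 from 0 under the settings of the report. With no filter the small leucine-rich proteoglycan median was 0.21 and the stromal surface median -0.22. Of 190 named genes 20 moved by over 1.5-fold with the offset, Top2a did with the mean of its rows (1.42), and none did under centring or quantile normalization.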
